A study of Homo sapiens with 24 samples.

Results

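SKM-1 is an established human cell line from acute myeloid leukaemia. SKM-1 cells given ABBV-075 at 100 nM for 24 h (2 libraries) were compared with SKM-1 cells given the solvent DMSO for 24 h (2 libraries), which are 4 of the 24 libraries of a series that also holds the leukaemia lines MV-4-11 and Kasumi-1, the lung cancer line NCI-H1299 and another compound, ABBV-744. Libraries were assigned by the line, treatment and dose in the labels, and RNA was poly-A selected and sequenced. The authors deposited each gene's level as FPKM, the fragments per kilobase of transcript scaled to library size. Of 30373 rows, 12986 reached 1 FPKM in at least 2 of the 4 libraries and were tested, and 12130 of these carried a gene symbol. All 4 libraries come from 1 cell line, and the labels do not say that the paired libraries were grown as separate cultures. The p-values therefore cover only the spread between these 4 libraries, which may be technical.

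ABBV-075 (mivebresib) blocks the bromodomains of the BET proteins, among them BRD2 and BRD3. These proteins bind acetylated lysines on histone tails and help to recruit the elongation kinase P-TEFb, made of CDK9 and a T-type cyclin, which releases paused RNA polymerase II. In acute myeloid leukaemia cells BET proteins are known to sustain MYC and other genes that depend on large enhancers, and HEXIM1, an inhibitor of P-TEFb, is a widely used marker that goes up when BET proteins are blocked.

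The 2 DMSO libraries stood further apart than the 2 ABBV-075 libraries. On the log2(FPKM + 1) scale the difference between the ABBV-075 libraries had an SD of 0.302 over genes and that between the DMSO libraries an SD of 0.655, and 0.639% of genes were 2-fold or more apart between the ABBV-075 libraries against 10.2% between the DMSO libraries. Transcripts of the mitochondrial genome took 8.68% and 9.58% of the FPKM sum in the ABBV-075 libraries, against 9.13% in DMSO library 1 and 22.3% in DMSO library 2. FPKM sums ran from 567761 to 568551 with ABBV-075 and from 569764 to 588726 with DMSO. Because the table holds FPKM and no counts, sequencing depth is unknown and counting error could not be given.

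Markers of the line were present. All 7 of the leukaemia markers CD33, ANPEP, PTPRC, SPI1, MPO, LYZ and CD4 reached 1 FPKM in at least 1 library, and their summed level was 144 and 129 FPKM with ABBV-075 and 3893 and 2892 FPKM with DMSO. Most of the DMSO sum was MPO, at 26.9 and 18.0 FPKM with ABBV-075 and 3374 and 2328 FPKM with DMSO. CD33, a myeloid surface lectin, stood at 21.2 and 18.2 FPKM with ABBV-075 and 46.9 and 32.3 FPKM with DMSO, and PTPRC, which encodes the leucocyte surface phosphatase CD45, at 42.4 and 43.2 FPKM with ABBV-075 and 99.5 and 111 FPKM with DMSO. Markers of other cell types were mostly near 0. Of 12 erythroid markers 1 reached 1 FPKM in any library, with HBB, HBG1, GYPB and AHSP at 0 in all 4 and a summed level of 2.12 and 2.18 FPKM with ABBV-075 and 1.58 and 1.41 FPKM with DMSO. Of 10 megakaryocyte markers 2 did, with PF4, PPBP and SELP at 0 and a summed level of 3.90 and 3.41 FPKM with ABBV-075 and 4.37 and 3.52 FPKM with DMSO. Of 12 T and NK cell markers 2 did (NKG7 and CD247, with LCK and GNLY at 0), and the summed level of this list was 4.42 and 3.39 FPKM with ABBV-075 and 25.5 and 12.9 FPKM with DMSO. Of 10 B cell markers 2 did, with MS4A1 and PAX5 at 0 and a summed level of 2.47 and 1.40 FPKM with ABBV-075 and 5.18 and 2.78 FPKM with DMSO, and of 10 fibroblast and endothelial markers only PECAM1 did, with COL3A1 and DCN at 0 and a summed level of 1.71 and 1.54 FPKM with ABBV-075 and 4.64 and 4.09 FPKM with DMSO. Of 10 epithelial markers 4 did, at a summed level of 8.90 and 9.11 FPKM with ABBV-075 and 20.6 and 55 FPKM with DMSO, and DMSO library 2 held the highest values of EPCAM (48.1 FPKM), KRT18 (2.71 FPKM), KRT8 (1.69 FPKM) and KRT7 (1.41 FPKM). The part of these markers in the results was not tested.

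Differences below are the mean log2(FPKM + 1) of the ABBV-075 libraries minus that of the DMSO libraries, with the standard error, and 2 libraries per group. A gene is said to have risen or fallen where limma gave an adjusted p under 0.05 after Benjamini-Hochberg adjustment over all 12986 genes. ABBV-075 was followed by a wide change of the transcriptome in both directions: 1910 genes rose (14.7%) and 2051 fell (15.8%), 3961 in all (30.5%). At 2-fold or more against each DMSO library taken alone, 899 genes rose (6.92%) and 1260 fell (9.70%), and at 4-fold or more 115 rose and 264 fell. The ABBV-075 and DMSO libraries did not overlap in any of these 3961 genes, and 68.4% of all genes tested had no overlap. The median difference over all genes was 0.06, or 0.01 against DMSO library 1 and 0.11 against DMSO library 2. Left out in turn, DMSO library 1 or 2 gave 3970 (30.6%) or 3041 (23.4%) rises and 3279 (25.3%) or 3356 (25.8%) falls, with the spread then taken from the close ABBV-075 pair, and ABBV-075 library 1 or 2 gave 720 (5.54%) or 806 (6.21%) rises and 1117 (8.6%) or 1070 (8.24%) falls, with the spread taken from the DMSO pair. Counts for gene lists in fits that leave out 1 library are to be read beside the shares of the same fit given here. For a single gene, an exact permutation test of groups of 2 and 2 can reach no p below 0.333, and the calls depend on limma's pooling of the spread over genes.

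**Figure D1:**
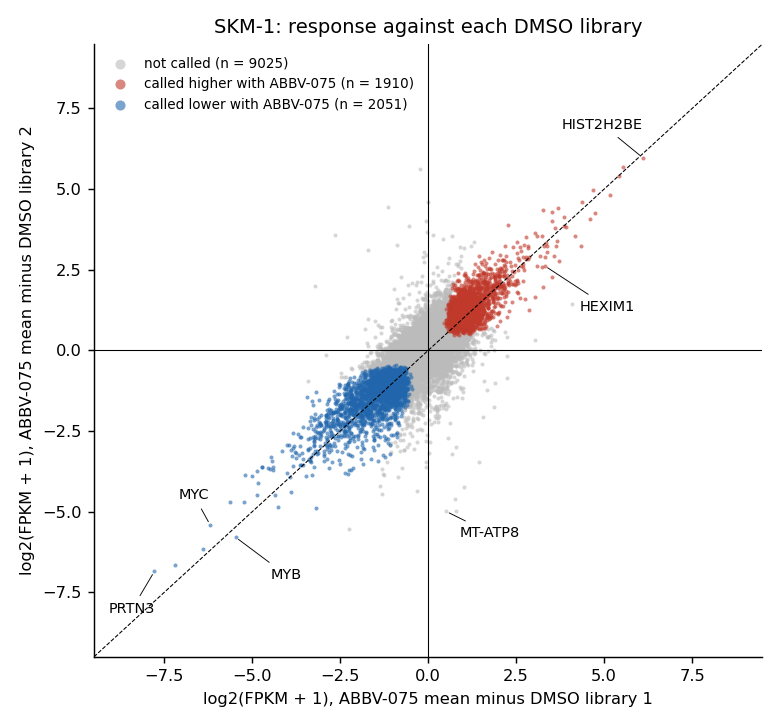
Each point is 1 of the 12986 tested genes, placed by its log2(FPKM + 1) difference of the ABBV-075 mean against DMSO library 1 (x axis) and against DMSO library 2 (y axis); red and blue points are called higher and lower with ABBV-075 and grey points are not called. Called genes lie along the dashed line of equal differences, while genes such as MT-ATP8 fall on opposite sides of 0.

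The 2 controls gave opposite signs for 2825 genes (21.8%), and none of these was called. In 10 genes both differences were also 2-fold or more. PTMS, which encodes the acidic nuclear protein parathymosin, read 123 and 109.9 FPKM with ABBV-075 and 30.2 and 236 FPKM with DMSO, so the DMSO libraries lie on either side of the ABBV-075 libraries. PABPN1, a nuclear poly-A binding protein, read 21.5 and 17.8 FPKM with ABBV-075 and 9.26 and 383 FPKM with DMSO. MT-ATP8, a mitochondrial ATP synthase subunit that shares part of its sequence with MT-ATP6, read 815 and 1378 FPKM with ABBV-075 and 747 and 33704 FPKM with DMSO. MT-ATP8 was below 2-fold against DMSO library 1. For these 3 genes no direction can be given.

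Clustered histone genes were among the steepest rises. All 21 tested members of the list of 23 rose, 20 of them by 2-fold or more against each DMSO library, at a median difference of 3.22. Of the 21, 6 reached 1 FPKM only with ABBV-075 and so had to be higher, and the 15 members at 1 FPKM or more in both groups all rose too. Among all tested genes 14.7% rose. HIST2H2BE, an H2B gene, stood at 165 and 185 FPKM with ABBV-075 and 1.57 and 1.78 FPKM with DMSO. That difference of 6.04 ± 0.26 (limma, adjusted p = 0.000159) was the highest of the list, and the lowest was 1.17. HIST2H4A, an H4 gene with a near-identical copy, stood at 257 and 253 FPKM with ABBV-075 and 4.47 and 4.02 FPKM with DMSO, a difference of 5.61 ± 0.27. HIST1H2BD read 121 and 132 FPKM with ABBV-075 and 1.996 and 2.01 FPKM with DMSO, and HIST1H2AC, an H2A gene, read 329.8 and 396 FPKM with ABBV-075 and 9.04 and 11.9 FPKM with DMSO. In all 4 genes each ABBV-075 library was more than 10 times either DMSO library. HIST2H2AA4 rose too, by 4.83 ± 0.31, as did the linker histone gene HIST1H1C, by 4.06 ± 0.33, and HIST1H2BC, by 4.34 ± 0.27. Members of the histone clusters are close in sequence, so how reads were shared among near-identical copies such as HIST2H2AA4, HIST2H4A and HIST2H3C is uncertain. Most mRNA of these genes ends in a stem-loop without a poly-A tail, so after poly-A selection the values describe their polyadenylated transcripts.

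Upstream sequences are shown for 3 of the steepest risers, since promoters of this gene class are known for CCAAT and TATA elements. They are the 250 bases before the RefSeq start on GRCh38.p14, 5′ to 3′ on the gene's strand. Capitals mark CCAAT and TATAAA on either strand, where the other strand reads ATTGG and TTTATA. The sources used here give no build for the deposited table, and genes were matched by symbol.
HIST2H2BE, chr1:149886683-149886932, minus strand: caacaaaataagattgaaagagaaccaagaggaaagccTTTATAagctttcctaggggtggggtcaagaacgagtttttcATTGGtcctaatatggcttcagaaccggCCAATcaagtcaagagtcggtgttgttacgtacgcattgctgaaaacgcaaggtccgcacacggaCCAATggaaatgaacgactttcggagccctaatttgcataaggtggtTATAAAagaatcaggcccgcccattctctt
HIST1H2BD, chr6:26157871-26158120, plus strand: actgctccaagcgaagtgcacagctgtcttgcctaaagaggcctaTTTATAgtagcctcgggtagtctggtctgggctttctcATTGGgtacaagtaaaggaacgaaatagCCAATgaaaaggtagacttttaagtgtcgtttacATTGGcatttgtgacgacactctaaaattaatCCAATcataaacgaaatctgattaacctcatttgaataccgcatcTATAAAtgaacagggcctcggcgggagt
HIST1H2AC, chr6:26123922-26124171, plus strand: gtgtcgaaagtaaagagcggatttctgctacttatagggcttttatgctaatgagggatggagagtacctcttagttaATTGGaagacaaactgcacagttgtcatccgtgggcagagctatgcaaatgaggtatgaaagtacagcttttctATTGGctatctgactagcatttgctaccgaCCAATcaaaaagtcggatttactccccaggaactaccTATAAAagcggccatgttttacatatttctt
Of the 21 tested histone genes 17 had such a sequence, and CCAAT was found in 15 of them (88.2%) and TATAAA in 9 (52.9%). Among all 9702 tested genes with a sequence, CCAAT was found in 35.6% and TATAAA in 5.03%. Genes that rose at 2-fold or more against each DMSO library held CCAAT in 40.2% of 629 sequences and TATAAA in 8.74%, and genes that fell held CCAAT in 33.2% of 954 and TATAAA in 5.87%. The E-box CACGTG, a site bound by MYC and MAX, was found in 8.43% of the sequences of genes that rose, 11.2% of those that fell and 9.4% of all. A match describes these letters alone.

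Histone genes outside the replication clusters divided. H1F0, the linker histone of resting and differentiated cells, stood at 1071 and 1064 FPKM with ABBV-075 and 84.1 and 100.4 FPKM with DMSO, a difference of 3.52 ± 0.32 (limma, adjusted p = 0.000634). H1FX rose by 2.15 ± 0.30. H2AFY2, a macroH2A gene, fell to 3.94 and 4.004 FPKM with ABBV-075, against 22.4 and 16.6 FPKM with DMSO. Of the 11 tested replacement histone genes 4 rose and 1 fell, against 14.7% and 15.8% of all genes, and more of them were called without DMSO library 2.

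The known pharmacodynamic markers of BET inhibition moved with ABBV-075. HEXIM1 stood at 82.5 and 80.5 FPKM with ABBV-075 and 7.33 and 12.4 FPKM with DMSO, a difference of 2.97 ± 0.32 (limma, adjusted p = 0.00107). SERPINI1, a serpin gene used as such a marker, read 13.9 and 17.1 FPKM with ABBV-075 and 2.92 and 3.83 FPKM with DMSO. CD180, a surface relative of the Toll-like receptors, read 0.0399 and 0.0407 FPKM with ABBV-075 and 2.18 and 2.14 FPKM with DMSO, and the chemokine receptor gene CCR2 read 0.0976 and 0.0413 FPKM with ABBV-075 and 2.91 and 4.26 FPKM with DMSO. HEXIM1 and SERPINI1 rose and CD180 and CCR2 fell, with no overlap between the groups, as in 68.4% of all genes tested. CD180 and CCR2 reached 1 FPKM with DMSO alone, so having passed the filter they had to be lower with ABBV-075. On this scale the differences of CD180 (-1.60 ± 0.18) and CCR2 (-2.09 ± 0.22) understate the fold, since both sat under the added 1 FPKM with ABBV-075. Of the 11 genes of a list of known risers 10 rose and 1 fell, against 14.7% and 15.8% of all genes. The 1 that fell was ZMYND8, a chromatin reader, at -1.44 ± 0.23, named after its value was seen. The list shares HIST2H2BE, HIST2H4A, HIST1H2BD and HIST1H2AC with the clustered histone list and TXNIP with the arrestin list, so these counts overlap. Its members were chosen with earlier results of these data known.

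BRD2 and BRD3 were not called. BRD2 stood at 147 and 133 FPKM with ABBV-075 and 80.2 and 88.8 FPKM with DMSO (0.72 ± 0.29, 95% interval 0.05 to 1.40). BRD3 differed by -0.16 ± 0.26 (interval -0.77 to 0.45). BRD2 differed by 0.80 against DMSO library 1 alone and by 0.65 against DMSO library 2 alone. It was called higher with the ABBV-744 libraries of SKM-1 added to the fit (limma, adjusted p = 0.0268) and with all 24 libraries (4.18e-05). Those larger fits take the spread from other groups too, and they called 2716 and 4212 of all genes higher. Of 21 tested BET, P-TEFb and elongation factor genes 6 rose and none fell, against 14.7% and 15.8% of all genes, and 9 had an unadjusted p under 0.05 in limma. CDK9 read 78.1 and 62.7 FPKM with ABBV-075 and 31.7 and 25.6 FPKM with DMSO. With ABBV-075 library 1 or 2 left out only 2 or 1 of the list were called, and CDK9 was not among them (limma, adjusted p = 0.249 and 0.116).

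MYC and MYB, the transcription factor genes most often tied to BET proteins in this leukaemia, were among the deepest falls. MYC stood at 3.17 and 3.27 FPKM with ABBV-075 and 309 and 178 FPKM with DMSO, a difference of -5.80 ± 0.34 (limma, adjusted p = 0.000303), or -6.20 against DMSO library 1 and -5.41 against DMSO library 2. MYB stood at 1.03 and 1.14 FPKM with ABBV-075 and 91.7 and 115 FPKM with DMSO, a difference of -5.63 ± 0.26 (limma, adjusted p = 0.000159). In both genes the higher ABBV-075 library lay far below the lower DMSO library. Of 10 tested genes of MYC and the MAX network, 2 rose, 1 fell (MYC itself) and 7 were not called, against 14.7% rising and 15.8% falling among all genes. The repressor genes MXD1 and MXD4 rose, by 1.63 ± 0.24 and 2.49 ± 0.37. MAX, the partner of MYC, was not called, at -0.28 ± 0.30. MXD4 read 104 and 80.3 FPKM with ABBV-075 and 21.4 and 11.0 FPKM with DMSO.

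**Figure D2:**
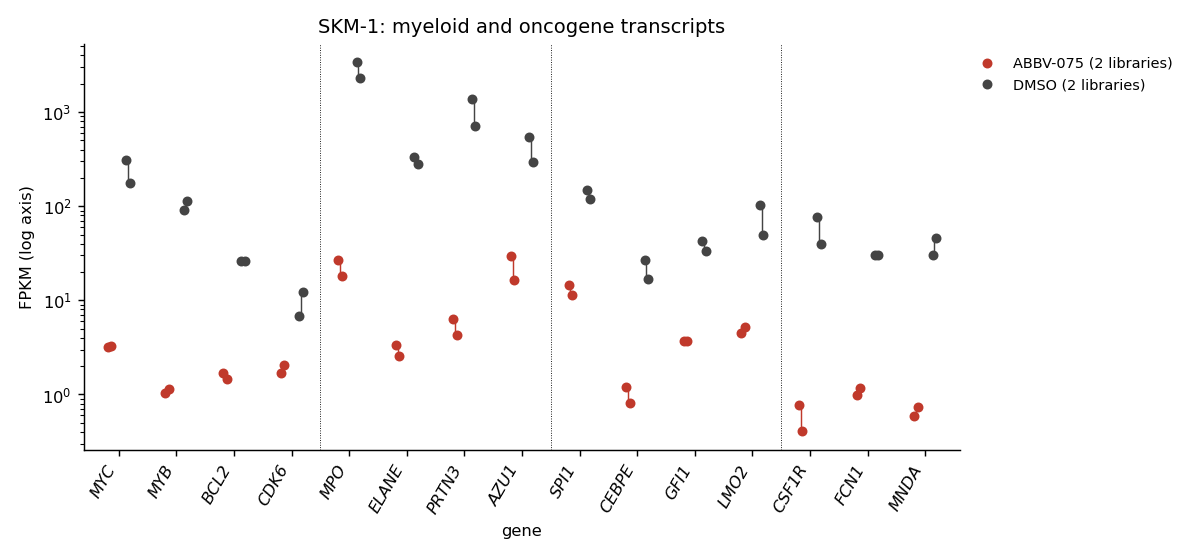
FPKM on a log axis in each of the 4 SKM-1 libraries, ABBV-075 (red) left of DMSO (dark grey) for each gene, with a line joining the 2 libraries of a group. Dotted lines part oncogenes and survival genes, primary granule genes, transcription factors and monocyte genes. In each of the 15 genes both ABBV-075 libraries lie below both DMSO libraries. CSF1R and MNDA reached 1 FPKM with DMSO alone.

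Genes of the neutrophil primary granule, the store of antimicrobial enzymes laid down at the promyelocyte stage, held some of the deepest falls. MPO, the granule peroxidase, stood at 26.9 and 18.0 FPKM with ABBV-075 and 3374 and 2328 FPKM with DMSO, a difference of -6.93 ± 0.37 (limma, adjusted p = 0.0002). PRTN3, proteinase 3, stood at 6.27 and 4.31 FPKM with ABBV-075 and 1369 and 718 FPKM with DMSO, a difference of -7.32 ± 0.39. ELANE, neutrophil elastase, stood at 3.32 and 2.57 FPKM with ABBV-075 and 329.8 and 282 FPKM with DMSO, a difference of -6.28 ± 0.29. All 3 were highly expressed in DMSO and near or below 30 FPKM with ABBV-075. AZU1, azurocidin, read 29.9 and 16.4 FPKM with ABBV-075 and 545 and 292 FPKM with DMSO. LPO, a peroxidase related to MPO that the list counts with these genes, read 0.660 and 0.602 FPKM with ABBV-075 and 18.3 and 18.0 FPKM with DMSO. LPO reached 1 FPKM with DMSO alone, so it had to be lower with ABBV-075. Of 13 tested primary granule genes 9 fell and 1 rose, or 7 and 1 of the 10 at 1 FPKM or more in both groups, against 15.8% falling among all genes. The 1 that rose was SERPINB1, a cytosolic inhibitor of these proteases, at 65.7 and 94.7 FPKM with ABBV-075 and 15.7 and 17.6 FPKM with DMSO, named after its value was seen. Of 12 secondary and tertiary granule genes only 4 passed the filter on low values, and HP (haptoglobin), MMP9 and CAMP fell, all 3 at 1 FPKM or more with DMSO alone. PRG2, the eosinophil granule protein, fell to 16.7 and 13.7 FPKM with ABBV-075, against 609 and 422 FPKM with DMSO. In bulk RNA, fewer cells of a type and less RNA per cell cannot be told apart.

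Of 14 tested transcription factors of the myeloid lineage 8 fell, none rose and 6 were not called, against 15.8% falling among all genes. SPI1, the master regulator PU.1, stood at 14.6 and 11.4 FPKM with ABBV-075 and 149 and 119 FPKM with DMSO, a difference of -3.26 ± 0.30 (limma, adjusted p = 0.000634). CEBPE, a late granulocytic factor, read 1.21 and 0.821 FPKM with ABBV-075 and 26.6 and 17.0 FPKM with DMSO, and GFI1, a granulocytic repressor, read 3.70 and 3.72 FPKM with ABBV-075 and 43.2 and 33.1 FPKM with DMSO. IRF8, which directs monocyte fate, read 2.76 and 1.99 FPKM with ABBV-075 and 13.6 and 22.6 FPKM with DMSO. CEBPA, the granulocytic lineage factor, was not called, at 98.3 and 84.4 FPKM with ABBV-075 and 107 and 67.6 FPKM with DMSO. Of 13 tested progenitor factors 6 fell and none rose, or 4 of the 10 at 1 FPKM or more in both groups. Besides MYB these were led by LMO2, an adaptor of haematopoietic stem cell complexes, at 4.45 and 5.18 FPKM with ABBV-075 and 102 and 49.2 FPKM with DMSO, and by GATA2, at 0.435 and 0.297 FPKM with ABBV-075 and 5.08 and 3.90 FPKM with DMSO. GATA2 reached 1 FPKM with DMSO alone, so it had to be lower with ABBV-075. Without ABBV-075 library 2, 5 myeloid and 3 progenitor factors were called lower, and without ABBV-075 library 1, 6 and 4 were.

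Monocyte and macrophage genes fell in part. CSF1R, the receptor for macrophage colony-stimulating factor, stood at 0.767 and 0.404 FPKM with ABBV-075 and 76.5 and 39.9 FPKM with DMSO. FCN1, a ficolin of blood monocytes, read 0.985 and 1.16 FPKM with ABBV-075 and 30.5 and 30.6 FPKM with DMSO, and MNDA, a nuclear antigen of myeloid cells, read 0.585 and 0.729 FPKM with ABBV-075 and 30.7 and 46.5 FPKM with DMSO. The differences of these genes were -5.16 ± 0.34, -3.93 ± 0.23 and -4.55 ± 0.28 (limma, adjusted p = 0.000309, 0.000303 and 0.000303). CSF1R and MNDA reached 1 FPKM with DMSO alone, so having passed the filter they had to be lower with ABBV-075. LYZ, which encodes lysozyme, fell to 30.4 and 32.1 FPKM with ABBV-075, against 194 and 278 FPKM with DMSO. Of 19 monocyte and macrophage genes 11 were tested and 9 fell, or 4 of the 6 at 1 FPKM or more in both groups, against 15.8% of all genes. CYBB, the catalytic subunit of the phagocyte NADPH oxidase, fell to 0.105 and 0.367 FPKM with ABBV-075, against 17.3 and 24.8 FPKM with DMSO. It too reached 1 FPKM with DMSO alone and had to be lower. The high-affinity IgG receptor gene FCGR1A and its close copy FCGR1B fell, with differences of -4.30 ± 0.38 and -3.58 ± 0.23, though reads of these copies may have been shared.

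Surface receptor genes were lower in part. KIT, the stem cell factor receptor, stood at 5.46 and 6.22 FPKM with ABBV-075 and 46.6 and 36.5 FPKM with DMSO, and CSF3R, the G-CSF receptor, at 8.71 and 6.43 FPKM with ABBV-075 and 47.5 and 28.1 FPKM with DMSO. Both fell. Of 12 growth factor receptors 5 fell and none rose, or 4 of the 11 at 1 FPKM or more in both groups. Among all tested genes 15.8% fell and 14.7% rose. Chemoattractant receptors fell in 7 of 10 tested genes, or 4 of the 6 at 1 FPKM or more in both groups, and CXCR4, which holds cells in the marrow niche, read 5.05 and 5.34 FPKM with ABBV-075 and 40.7 and 34.97 FPKM with DMSO. ITGA4, the alpha chain of the integrin VLA-4, fell to 2.52 and 3.51 FPKM with ABBV-075, against 38.7 and 42.7 FPKM with DMSO, and SELPLG, the selectin ligand PSGL-1, fell with a difference of -3.20 ± 0.23. Fc receptor genes did not all fall. FCER1G, the signalling chain shared by several Fc receptors, rose to 313 and 335 FPKM with ABBV-075, against 103 and 60.6 FPKM with DMSO. Of 12 tested MHC class II genes 7 fell, or 4 of the 9 at 1 FPKM or more in both groups. HLA-DRA read 1.24 and 2.04 FPKM with ABBV-075 and 21.8 and 14.4 FPKM with DMSO, and its transactivator CIITA 0.0126 and 0 FPKM with ABBV-075 and 1.54 and 1.35 FPKM with DMSO. CIITA reached 1 FPKM with DMSO alone, so it had to be lower with ABBV-075. With either ABBV-075 library left out, 4 MHC class II genes were called.

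**Figure D3:**
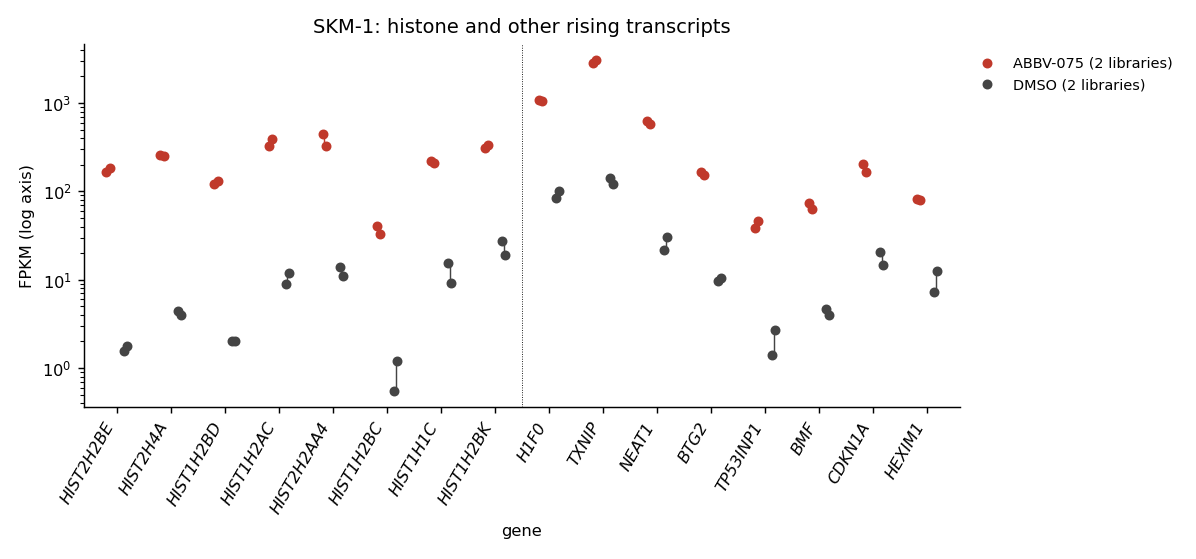
FPKM on a log axis in each of the 4 SKM-1 libraries, ABBV-075 (red) left of DMSO (dark grey) for each gene, with a line joining the 2 libraries of a group. Clustered histone genes stand left of the dotted line and other rising genes right of it; both ABBV-075 libraries lie above both DMSO libraries in each of the 16 genes.

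Several genes that hold back proliferation or promote death rose. CDKN1A, which encodes the CDK inhibitor p21, stood at 202 and 165 FPKM with ABBV-075 and 20.5 and 14.5 FPKM with DMSO, a difference of 3.33 ± 0.31 (limma, adjusted p = 0.000687). CDKN2D, which encodes p19, rose by 2.02 ± 0.28 and CDKN1C, which encodes p57, by 1.17 ± 0.21, so 3 of 7 CDK inhibitor genes rose. Among all tested genes 14.7% rose. BTG2, an antiproliferative p53 target, stood at 166 and 153 FPKM with ABBV-075 and 9.69 and 10.3 FPKM with DMSO. TP53INP1, a p53-induced stress gene, stood at 38.7 and 46.6 FPKM with ABBV-075 and 1.42 and 2.69 FPKM with DMSO. TNFRSF10B, the death receptor DR5, read 147 and 137 FPKM with ABBV-075 and 23.8 and 16.7 FPKM with DMSO. Of 20 tested p53 target genes 8 rose, and AEN, a nuclease gene, fell by 2.39 (standard error 0.29). The ligand gene of DR5, TNFSF10 (TRAIL), fell to 1.87 and 2.70 FPKM with ABBV-075, against 11.1 and 13.4 FPKM with DMSO. The median of the p53 target list was 0.85 against DMSO library 1 and 0.77 against DMSO library 2. Fewer of its genes were called higher without ABBV-075 library 2 and more without DMSO library 2, as among all genes.

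In the BCL2 family the members did not move as 1 group. BCL2, the survival gene, fell to 1.71 and 1.47 FPKM with ABBV-075, against 26.1 and 25.9 FPKM with DMSO, a difference of -3.38 ± 0.23 (limma, adjusted p = 0.000309). BMF, a BH3-only activator of cell death, rose to 73.5 and 63.6 FPKM with ABBV-075, against 4.66 and 4.03 FPKM with DMSO, a difference of 3.70 ± 0.26 (limma, adjusted p = 0.00035). MCL1, another survival gene, stood at 188 and 219.9 FPKM with ABBV-075 and 83.9 and 87.5 FPKM with DMSO, and BCL2L11, which encodes the BH3-only protein BIM, at 14.7 and 16.1 FPKM with ABBV-075 and 6.61 and 6.21 FPKM with DMSO. Both rose, but MCL1 was not called without ABBV-075 library 1 (limma, adjusted p = 0.186) or 2 (0.303), nor was BCL2L11 (0.0943 and 0.144). BCL2L1, which encodes BCL-XL, was not called, at -0.50 ± 0.28 (95% interval -1.15 to 0.14). It differed by -0.74 against DMSO library 1 alone and by -0.27 against DMSO library 2 alone. With all 24 libraries in the fit BCL2L1 was called lower (limma, adjusted p = 0.0286), where 3809 of all genes were. HRK, a BH3-only gene, fell to 0.217 and 0.350 FPKM with ABBV-075, against 1.84 and 1.76 FPKM with DMSO. Of 12 pro-apoptotic members 4 rose and 1 fell, against 14.7% and 15.8% of all genes, and HRK, the 1 that fell, reached 1 FPKM with DMSO alone. With either ABBV-075 library left out 1 member was called higher.

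Most DNA replication genes fell, and no mitosis gene was called, where 15.8% of all tested genes fell and 14.7% rose. MCM3, a subunit of the replicative helicase, stood at 39.2 and 34.7 FPKM with ABBV-075 and 183 and 174 FPKM with DMSO, a difference of -2.24 ± 0.28 (limma, adjusted p = 0.00178). MCM4 read 21.6 and 21.9 FPKM with ABBV-075 and 108 and 139.5 FPKM with DMSO, and UHRF1, which couples replication to DNA methylation, read 9.14 and 7.34 FPKM with ABBV-075 and 53.5 and 62.3 FPKM with DMSO. Of 31 tested replication genes 27 fell and none rose, 23 of them by 2-fold or more against each DMSO library, at a median of -1.76. With ABBV-075 library 1 or 2 left out, 20 or 17 fell. Of 21 recombination and Fanconi repair genes 14 fell, and 6 or 7 fell with ABBV-075 library 1 or 2 left out. Of 30 mitosis genes none was called (limma), 3 had an unadjusted p under 0.05 in the rising and 2 in the falling direction, and the median was -0.16. TOP2A, the mitotic topoisomerase, stood at 153 and 186 FPKM with ABBV-075 and 154 and 200.2 FPKM with DMSO, and PTTG1, securin, at 210.4 and 232 FPKM with ABBV-075 and 149.6 and 67.1 FPKM with DMSO. The median of the mitosis list was -0.03 against DMSO library 1 and -0.26 against DMSO library 2, and PTTG1 differed by 0.56 and 1.70. With either DMSO library left out, some mitosis genes were called in each direction, when the spread comes from the close ABBV-075 pair.

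Genes of the G1 phase were lower in part, where 15.8% of all tested genes fell. CDK6, a G1 kinase gene of haematopoietic cells, fell to 1.69 and 2.05 FPKM with ABBV-075, against 6.80 and 12.2 FPKM with DMSO, a difference of -1.83 ± 0.30 (limma, adjusted p = 0.00449). CDC25A, the phosphatase that activates CDK2, fell to 4.35 and 4.71 FPKM with ABBV-075, against 27.3 and 26.6 FPKM with DMSO. E2F1, which drives the entry into S phase, fell by 1.78 (standard error 0.29), and 6 of 12 genes of the RB and E2F list fell. In the G1 list 5 of 7 fell and 1 rose, the cyclin gene CCND3, at 346 and 301 FPKM with ABBV-075 and 139.9 and 92.6 FPKM with DMSO. CCND3 was not called without ABBV-075 library 1 (limma, adjusted p = 0.186) or 2 (0.12). Of the G1 list 3 or 2 were called lower without ABBV-075 library 1 or 2, and of the RB and E2F list 2 or 4.

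Most ribosome production genes fell, where 15.8% of all tested genes did. RRS1, an assembly factor of the large ribosomal subunit, stood at 3.32 and 3.01 FPKM with ABBV-075 and 31.5 and 35.5 FPKM with DMSO. NOP16, a nucleolar protein gene, stood at 7.18 and 6.65 FPKM with ABBV-075 and 97.3 and 50.1 FPKM with DMSO, and MRTO4, a factor that prepares the ribosomal stalk, at 5.18 and 4.44 FPKM with ABBV-075 and 47.6 and 44.3 FPKM with DMSO. Their differences were -3.05 ± 0.25, -3.16 ± 0.36 and -3.02 ± 0.26 (limma, adjusted p = 0.000483, 0.00128 and 0.000525). Of 30 ribosome biogenesis genes 28 fell and none rose, 27 by 2-fold or more against each DMSO library, at a median of -1.87, and 23 or 22 fell without ABBV-075 library 1 or 2. NPM1, nucleophosmin, was not called, at 1079 and 1222 FPKM with ABBV-075 and 1676 and 3474 FPKM with DMSO, but it was called lower without DMSO library 1 or 2. The structural proteins of the ribosome gave another picture. Of 36 cytosolic ribosomal protein genes none was called (limma), 1 had an unadjusted p under 0.05, and the median was 0.30, or -0.04 against DMSO library 1 and 0.62 against DMSO library 2. RPS6 stood at 3405 and 3589.7 FPKM with ABBV-075 and 3088 and 3172 FPKM with DMSO. Without DMSO library 1, 27 of the 36 were called higher, and without DMSO library 2, 4 higher and 1 lower. Of 22 mitochondrial ribosomal protein genes 10 fell, led by MRPL24 and MRPL3, and 5 or 3 fell without ABBV-075 library 1 or 2 and 19 without DMSO library 2.

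Some of the genes that load amino acids onto tRNA or supply amino acids fell, where 15.8% of all tested genes did. IARS, the isoleucine tRNA synthetase, stood at 13.2 and 12.4 FPKM with ABBV-075 and 70.1 and 51.4 FPKM with DMSO, and 13 of 20 cytosolic synthetase genes fell, with 7 not called. Of 22 genes of the ATF4 amino acid stress response 12 fell and 1 rose, or 9 and 1 of the 19 at 1 FPKM or more in both groups. PSAT1, an enzyme of serine synthesis, stood at 14.9 and 16.9 FPKM with ABBV-075 and 109.5 and 85.5 FPKM with DMSO, and STC2, a secreted glycoprotein of that response, at 1.02 and 0.954 FPKM with ABBV-075 and 24.2 and 17.7 FPKM with DMSO. SLC7A11, the cystine transporter, fell to 0.359 and 0.344 FPKM with ABBV-075, against 4.43 and 7.38 FPKM with DMSO, and SLC38A5, a glutamine transporter, to 0.889 and 0.972 FPKM with ABBV-075, against 71.0 and 27.4 FPKM with DMSO. Amino acid transporters fell in 8 of 13 genes, or 6 of the 11 at 1 FPKM or more in both groups, since SLC7A11 and SLC38A5 reached 1 FPKM with DMSO alone. With either ABBV-075 library left out, 5 of the synthetase genes were called lower, and without ABBV-075 library 2, 5 of the transporter genes.

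Synthesis of nucleotides and lipids showed falls as well, where 15.8% of all tested genes fell. NME1, a nucleoside diphosphate kinase and known MYC target, fell to 10.6 and 8.96 FPKM with ABBV-075, against 314 and 238 FPKM with DMSO, a difference of -4.67 ± 0.30 (limma, adjusted p = 0.000303). Its relative NME2 was not called, at -0.98 ± 0.36, and how reads were shared between NME1 and NME2 is uncertain. PFAS, an enzyme of purine synthesis, fell to 0.948 and 1.02 FPKM with ABBV-075, against 18.2 and 17.4 FPKM with DMSO, and 12 of 22 nucleotide synthesis genes fell with none rising. SRM, spermidine synthase, fell to 10.4 and 9.43 FPKM with ABBV-075, against 77.6 and 40.9 FPKM with DMSO, while SAT1, which acetylates polyamines for breakdown and export, rose to 188 and 205 FPKM with ABBV-075, against 16.3 and 39.7 FPKM with DMSO. FASN, fatty acid synthase, fell to 23.5 and 15.2 FPKM with ABBV-075, against 102 and 74.3 FPKM with DMSO, and 5 of 10 fatty acid synthesis genes fell. ACSL5, which activates long-chain fatty acids, fell by 4.06 (standard error 0.30). Of 22 cholesterol synthesis genes 8 fell, led by DHCR7, the final enzyme of that pathway, at -2.16 ± 0.33. After rescaling to an equal FPKM sum without mitochondrial transcripts 14 of the 22 fell, after median-ratio scaling 12, and without a filter 3. With ABBV-075 library 1 or 2 left out, 5 or 6 nucleotide synthesis genes and 2 or 4 cholesterol synthesis genes were called lower. Without DMSO library 2, 19 nucleotide synthesis and 17 cholesterol synthesis genes were.

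**Figure D4:**
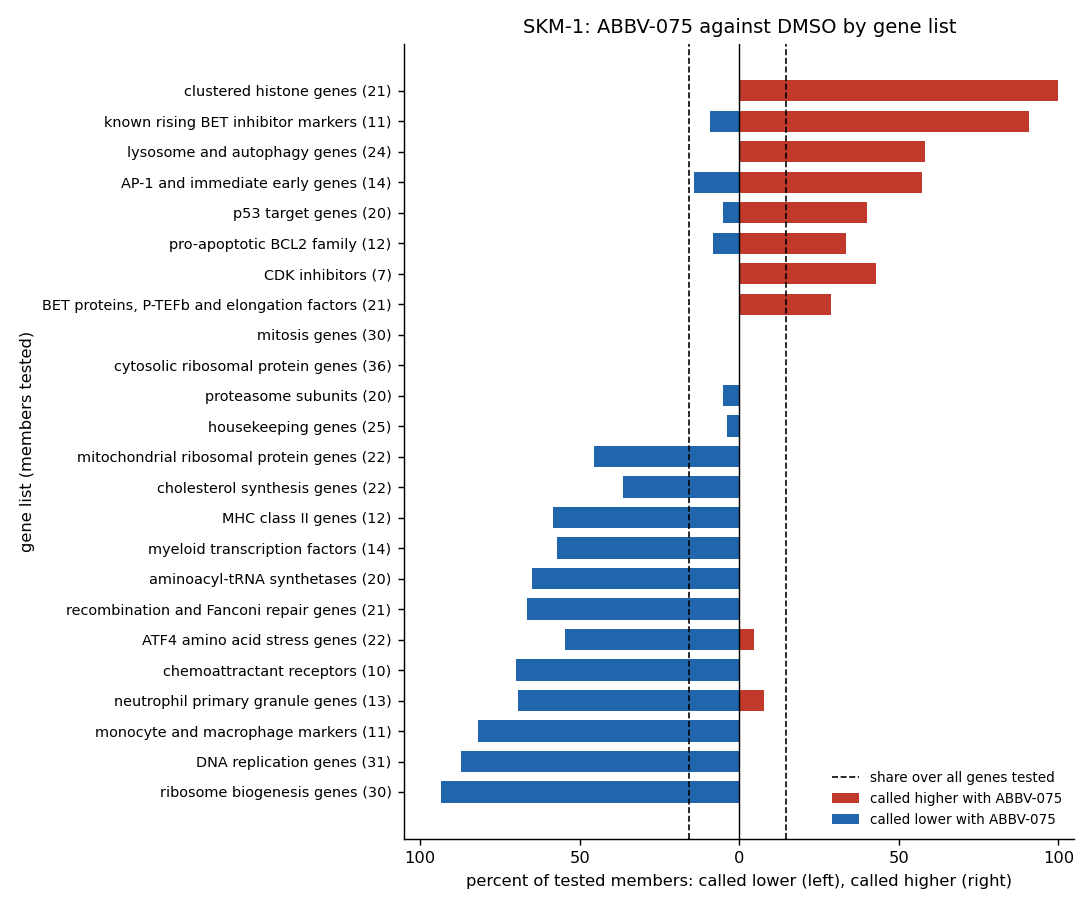
Percent of the tested members of 24 gene lists that were called higher (red bars, right of 0) or lower (blue bars, left of 0) with ABBV-075 against DMSO, with the number tested in brackets. Dashed lines mark the share over all tested genes, 14.7% higher and 15.8% lower; the ribosome biogenesis list (28 of 30 lower) and DNA replication list (27 of 31 lower) reach far to the left and the clustered histone list (21 of 21 higher) far to the right.

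More than the background share of lysosome and autophagy genes rose. SQSTM1, the autophagy receptor p62, stood at 317 and 259.7 FPKM with ABBV-075 and 39.0 and 30.6 FPKM with DMSO, a difference of 3.02 ± 0.30 (limma, adjusted p = 0.000906). MAP1LC3B, the autophagosome coat protein LC3B, read 102 and 165 FPKM with ABBV-075 and 22.5 and 20.1 FPKM with DMSO, and GABARAPL1, a relative of it, read 15.4 and 17.1 FPKM with ABBV-075 and 3.41 and 4.43 FPKM with DMSO. Of 24 genes 14 rose and none fell, against 14.7% rising among all genes, 6 by 2-fold or more against each DMSO library. Without a filter 5 rose. With either ABBV-075 library left out 4 rose, and SQSTM1, MAP1LC3B, GABARAPL1 and WIPI1 were those 4. Both ferritin chains rose: the heavy chain gene FTH1 stood at 1405 and 1571 FPKM with ABBV-075 and 215 and 200.4 FPKM with DMSO, and the light chain gene FTL at 5002 and 4681 FPKM with ABBV-075 and 801 and 695 FPKM with DMSO. Ferritin has many processed pseudogene copies, so its reads may have been shared.

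Immediate early and arrestin genes gave further rises. TXNIP, an alpha-arrestin that limits glucose uptake, stood at 2869.7 and 3031 FPKM with ABBV-075 and 142 and 120.3 FPKM with DMSO, a difference of 4.49 ± 0.34 (limma, adjusted p = 0.00042). Its relatives ARRDC3 and ARRDC4 rose by 2.85 ± 0.28 and 2.60 ± 0.26. NEAT1, the nuclear RNA that scaffolds paraspeckles, stood at 628 and 583 FPKM with ABBV-075 and 21.5 and 30.4 FPKM with DMSO. JUN, an AP-1 subunit, read 81.0 and 69.8 FPKM with ABBV-075 and 14.4 and 15.0 FPKM with DMSO, and ZFP36, which destabilises cytokine mRNAs, read 90.6 and 87.1 FPKM with ABBV-075 and 16.3 and 15.2 FPKM with DMSO. Of 14 tested AP-1 and immediate early genes 8 rose and 2 fell, but both that fell reached 1 FPKM with DMSO alone, and of the 12 at 1 FPKM or more in both groups 8 rose and none fell. FOSL1, an AP-1 subunit gene that fell, read 0.424 and 0.466 FPKM with ABBV-075 and 3.40 and 4.72 FPKM with DMSO. Without ABBV-075 library 1, 5 of this list were called higher. Among 29 histone modifier genes 7 rose and 2 fell, or 7 and 1 of the 28 at 1 FPKM or more in both groups. Over all tested genes 14.7% rose and 15.8% fell. The acetyltransferase gene KAT2A fell to 7.52 and 5.55 FPKM with ABBV-075, against 53.3 and 25.7 FPKM with DMSO. With ABBV-075 library 1 or 2 left out, 2 or 1 histone modifier genes were called higher, and with either DMSO library left out 15 were.

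Several lists held few calls or calls in both directions, and the heat shock list held falls only. Among all tested genes 14.7% rose and 15.8% fell. Of 20 proteasome subunits 1 fell, and of 25 nuclear respiratory chain genes 2 fell, with none rising in either. Without DMSO library 1, 7 proteasome and 11 respiratory chain genes were called higher, in a fit that called 30.6% of all genes higher. Of 13 transcripts of the mitochondrial genome none was called (limma), 2 had an unadjusted p under 0.05, and 11 were called lower without DMSO library 1. Of 25 housekeeping genes 1 fell, and the median was -0.08 against DMSO library 1 and 0.30 against DMSO library 2. Without DMSO library 1 some housekeeping genes were called in each direction. Among 18 tested interferon response genes 4 rose and 3 fell, or 4 and 1 of the 16 at 1 FPKM or more in both groups. IFI6, an interferon-induced mitochondrial protein gene, read 7.84 and 10.1 FPKM with ABBV-075 and 1.76 and 2.20 FPKM with DMSO, and IRF7, a transcription factor of that response, read 21.6 and 15.4 FPKM with ABBV-075 and 4.89 and 4.74 FPKM with DMSO. The median of the interferon list was -0.27 against DMSO library 1 and -0.19 against DMSO library 2, and its counts in both directions moved when single libraries were left out. Of 13 MAPK feedback genes 5 rose and 4 fell, and DUSP5, a phosphatase of ERK, read 28.9 and 28.6 FPKM with ABBV-075 and 5.49 and 2.88 FPKM with DMSO. Without ABBV-075 library 1, 2 rose and 3 fell, and without library 2, 3 rose and none fell. Of 19 heat shock genes 8 fell and none rose. HSPE1, the mitochondrial co-chaperonin, read 51.1 and 58.5 FPKM with ABBV-075 and 262 and 734 FPKM with DMSO. The heat shock count was 1 or 4 without ABBV-075 library 1 or 2.

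Whether the response of SKM-1 differed from that of the other 2 leukaemia lines was tested directly, as the SKM-1 response minus the mean response of MV-4-11 and Kasumi-1 to the same dose and time, in a limma fit of 12 libraries with a weight for each group. Of 10622 genes tested, 155 had a higher response in SKM-1 (1.46%) and 144 a lower one (1.36%), 2.81% in all, and 2116 had an unadjusted p under 0.05. MYB fell in SKM-1 with a response of -5.63, against -0.27 in MV-4-11 and -0.15 in Kasumi-1, a difference of -5.42 ± 0.26 (limma, adjusted p = 2.04e-06). MPO responded by -6.93 in SKM-1, against -0.60 in MV-4-11 and -0.19 in Kasumi-1, a difference of -6.54 ± 0.52 (limma, adjusted p = 0.000126). ELANE and PRTN3 differed by -5.61 ± 0.53 and -5.71 ± 0.60. Of 12 tested genes of the primary granule list 6, LPO among them, had a lower response in SKM-1 and 1 a higher one. To be tested, a gene needed only 1 FPKM in 2 libraries of each line, and a gene low in DMSO can fall little on this scale. DMSO levels in MV-4-11 and Kasumi-1 are not given here, and their part in these differences was not tested. MYC had negative responses in all 3 lines, -5.80 in SKM-1, -1.15 in MV-4-11 and -3.06 in Kasumi-1. The difference for MYC was -3.70 ± 0.29. In the other direction, H1F0 responded by 3.52 in SKM-1, against 0.07 in MV-4-11 and 0.44 in Kasumi-1, and TNFRSF10B by 2.77 in SKM-1, against 0.45 in MV-4-11 and -0.83 in Kasumi-1. BMF differed by 2.77 ± 0.29. Of 12 tested clustered histone genes 6 had a higher response in SKM-1 and none a lower one. No DNA replication gene of 31 and 4 of 30 ribosome biogenesis genes differed, the 4 being lower in SKM-1.

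The count of such genes moved with single libraries, while the genes named for it did not lose the call. Without SKM-1 DMSO library 1, 2780 genes had a higher and 1806 a lower response, and without SKM-1 DMSO library 2, 704 and 776. Without ABBV-075 library 1 of SKM-1 the counts were 89 and 101, and without Kasumi-1 ABBV-075 library 1 they were 283 and 226. Without MV-4-11 ABBV-075 library 1 they were 80 and 79, and without MV-4-11 DMSO library 2 they were 85 and 90. Without MV-4-11 ABBV-075 library 2, 93 genes had a lower response. The 16 genes placed in the plot of the 3 lines kept the call and the direction under all 12 of these fits. RAC2 and TMC6, 2 of them, lost their call in SKM-1 alone without ABBV-075 library 1 (limma, adjusted p = 0.0734 and 0.25).

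**Figure D5:**
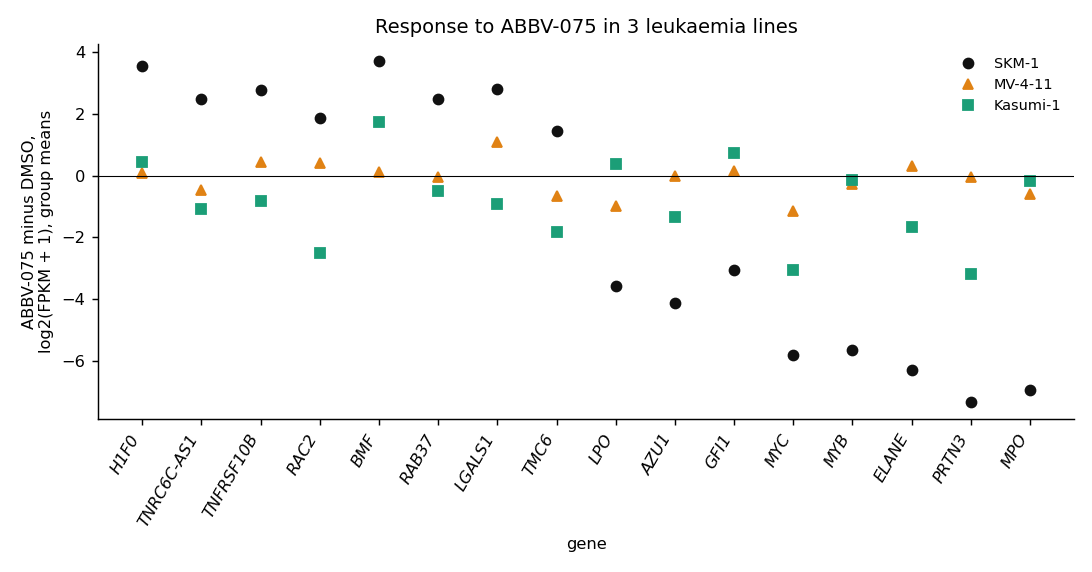
Response to ABBV-075 as the difference of group means of log2(FPKM + 1), ABBV-075 minus DMSO, in SKM-1 (circles), MV-4-11 (triangles) and Kasumi-1 (squares), each from 2 libraries per group, for the 8 genes with the highest and the 8 with the lowest called difference between SKM-1 and the mean of the other lines. MPO and MYB lie near 0 in MV-4-11 and Kasumi-1 and between -5 and -7 in SKM-1.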

How the data were processed

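RNA from SKM-1 cells was poly-A selected and sequenced, per the labels' protocols, and the authors deposited 1 table of FPKM values per gene for all libraries. The submitters' processing notes name DESeq2 without a version; no aligner, build or annotation is named there or in the labels (not given in the sources used here). The deposited FPKM values carry no counts, so no count test was run and depth is unknown. Columns were matched to libraries by the labels.

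Genes at 1 FPKM or more in at least 2 of the 4 libraries were tested on log2(FPKM + 1), a pseudocount of 1 that understates the change of low genes, with limma 3.58.1 (trended, robust eBayes) in R 4.3.3 on the 4 SKM-1 libraries, with 2 residual degrees of freedom. Genes with an adjusted p under 0.05 (Benjamini-Hochberg) were called. The difference in response between lines used group weights (statmod 1.5.0). The fit was tested on simulated data. Figures used Python 3.11.15 and matplotlib 3.10.9.

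Members and lists were chosen with earlier results of these data known. Named genes are a fixed set of BET targets and BCL2 family genes, the 20 largest rises and 20 largest falls by the smaller difference against either DMSO library with a mean of 5 FPKM or more, up to 5 called and 2 uncalled members per list, genes with opposite signs against the controls, and the 8 and 8 largest differences in response; exceptions are stated. Alternatives were another pseudocount, other filters, rescaling, larger fits and leaving out each library. Some named genes are not reported here.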

Additional observations from a re-analysis of the deposited data

Results flagged for a closer look

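The response to ABBV-075 differed between SKM-1 and the mean of MV-4-11 and Kasumi-1 in 16 genes picked for the size of that difference, all past an adjusted p of 0.05 in limma. Values are differences of log2(FPKM + 1) responses with the standard error.

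A lower response in SKM-1 was found for genes of the primary granule: MPO (-6.54 ± 0.52), PRTN3 (-5.71 ± 0.60), ELANE (-5.61 ± 0.53) and AZU1 (-3.43 ± 0.59). It was also found for LPO (-3.25 ± 0.35), a related peroxidase. The responses of ELANE were -6.28 in SKM-1, 0.30 in MV-4-11 and -1.65 in Kasumi-1, and those of AZU1 were -4.11 in SKM-1, -0.03 in MV-4-11 and -1.32 in Kasumi-1. DMSO levels in MV-4-11 and Kasumi-1 are not given here, and a gene low there can fall little on this scale. Among transcription factors, MYB (-5.42 ± 0.26), MYC (-3.70 ± 0.29) and GFI1 (-3.48 ± 0.24) were lower in SKM-1, and the responses of GFI1 were -3.04 in SKM-1, 0.14 in MV-4-11 and 0.72 in Kasumi-1.

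A higher response in SKM-1 was found for H1F0 (3.27 ± 0.33), TNFRSF10B (2.96 ± 0.25) and BMF (2.77 ± 0.29). It was also found for RAC2 (2.92 ± 0.40), a GTPase of blood cells, with responses of 1.87 in SKM-1, 0.41 in MV-4-11 and -2.51 in Kasumi-1. LGALS1, which encodes galectin-1, differed by 2.71 ± 0.31, with responses of 2.80 in SKM-1, 1.10 in MV-4-11 and -0.92 in Kasumi-1. RAB37, a GTPase of secretory vesicles, differed by 2.75 ± 0.29, TMC6 by 2.70 ± 0.49 and the antisense locus TNRC6C-AS1 by 3.25 ± 0.32. The SKM-1 responses of these genes were 2.47 for RAB37, 1.45 for TMC6 and 2.47 for TNRC6C-AS1. Each is smaller than the difference, so the mean response of the other lines was negative. Reads of TNRC6C-AS1 and of the gene it overlaps cannot be told apart without strand, and the counting is not stated to use it.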

How the results depend on the processing

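No paired analysis was possible because the labels carry no replicate numbers. Main counts were 1910 rises and 2051 falls, of which 899 and 1260 were 2-fold against each DMSO library. Without any filter 1077 genes rose, and with all 24 libraries in the fit 4212 rose and 3809 fell. Without a filter 8 of 20 synthetase genes, 5 of 14 amino acid transporters, 4 of 15 MHC class II genes and none of 14 MAPK feedback genes fell. Leaving out 1 SKM-1 library gave 720 to 3970 rises and 1070 to 3356 falls, or 627 to 2034 and 966 to 1948 at 2-fold; without a library of one group, the spread comes from the other group's pair, which is close for ABBV-075 and wide for DMSO. No gene called in SKM-1 was called in the other direction under any setting tried. PTMS, PABPN1 and MT-ATP8, uncalled with both controls, were called lower without DMSO library 1 and higher without DMSO library 2. For the difference from the other lines, main counts were 155 higher and 144 lower responses. They were 624 and 817 without a filter and 582 and 481 without group weights, and 221 were lower after median-ratio scaling; the cause was not tested. Leaving out 1 library gave 80 to 2780 higher and 79 to 1806 lower.

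Direction changed for uncalled genes only. Over the fits that leave out 1 SKM-1 library, the log2 difference ran from -0.23 to 0.43 for CEBPA, from -4.99 to 0.50 for MT-ATP8, from -4.22 to 1.004 for PABPN1, from -1.02 to 1.91 for PTMS and from -0.25 to 0.13 for TOP2A. With FPKM alone, the depth behind low values is unknown, so differences of genes under a few FPKM cannot be weighed by counting error.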
